A study of Mus musculus with 24 samples.

Results

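Expression of 10 genes of the Nrf2 antioxidant system was followed through 24 mRNA libraries of dispersed mouse islet cells. The genes were Nfe2l2, Keap1, Hmox1, Nqo1, Gclc, Gclm, Txnrd1, Srxn1, Slc7a11 and Gsr, taken by their symbol, and each matched 1 line among the 41549 genes of the table, so that all 10 were found. All 10 passed the filter on low counts. The cells came from Wild type mice, which the study's methods describe as male and female C57BL/6NRj animals of 12 to 14 weeks, and were transfected with 50 pmol of an antisense oligonucleotide (ASO). The ASO was either a control (Ctr) or one directed at a fragment of the tRNA for glutamate (αGlu). For the following 48 h the cells received 0.5 mM of the saturated fatty acid palmitate (PA) bound to albumin (BSA), or 0.75% BSA alone. The 4 groups (Ctr and αGlu, each with BSA or PA) had 6 libraries each, 3 in batch 1 (S1 to S12) and 3 in batch 2 (S13 to S24). The labels do not say what a batch is, nor which libraries came from the same animals, although the study states that the groups of a replicate did. Library totals were 18214719 to 35001979 counts. The tRNA fragment itself is not measured by mRNA libraries, so the table holds no direct check of the ASO.

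Nrf2, the product of Nfe2l2, is the transcription factor that drives most inducible antioxidant genes. In resting cells the sensor protein Keap1 hands it to a Cul3 ubiquitin ligase for degradation, and oxidants or electrophiles that modify Keap1 cysteines let Nrf2 accumulate, pair with small Maf proteins and bind antioxidant response elements. Its targets supply glutathione, run the thioredoxin and sulfiredoxin cycles, and remove haem and quinones. Pancreatic beta-cells are known for low levels of several antioxidant enzymes, which is why this system is often studied in islets exposed to fatty acids.

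The antisense sequence and its target are shown because they define the αGlu groups. Capitals in the target mark the bases that pair with the ASO, positions 2 to 21 from its 5′ end.
αGlu ASO: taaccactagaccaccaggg
target: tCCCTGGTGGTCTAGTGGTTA

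Promoter windows are shown for the members that passed the test under PA and have an entry in the RefSeq promoter table (build GRCm38.p6, 250 bases before to 50 bases after the start of transcription). The table held windows for 7 of the 10 members, and none for Hmox1, Gclc and Gsr. Windows were searched on both strands for the core of the antioxidant response element, TGACNNNGC, and for its variant TGAGNNNGC, and no position can match both. Capitals mark matches, read as the opposite strand where the match begins with GC. Among the 32851 windows of all genes, 12.4% held TGACNNNGC and 17.6% held TGAGNNNGC.
Srxn1, chr2:152105274-152105573, plus strand: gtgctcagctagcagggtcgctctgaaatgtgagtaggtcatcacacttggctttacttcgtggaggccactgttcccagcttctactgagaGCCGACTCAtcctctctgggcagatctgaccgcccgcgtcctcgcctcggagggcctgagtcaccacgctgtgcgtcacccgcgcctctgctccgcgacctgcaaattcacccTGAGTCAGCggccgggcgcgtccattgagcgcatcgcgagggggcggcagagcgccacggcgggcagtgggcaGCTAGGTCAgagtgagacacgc
Gclm, chr3:122245307-122245606, plus strand: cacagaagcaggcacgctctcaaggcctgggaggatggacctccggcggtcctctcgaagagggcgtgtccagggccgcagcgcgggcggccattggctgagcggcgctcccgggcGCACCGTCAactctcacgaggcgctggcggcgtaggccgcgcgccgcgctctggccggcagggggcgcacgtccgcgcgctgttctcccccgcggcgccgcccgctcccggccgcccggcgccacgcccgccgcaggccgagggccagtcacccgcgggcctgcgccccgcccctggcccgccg
Slc7a11, chr3:50443564-50443863, minus strand: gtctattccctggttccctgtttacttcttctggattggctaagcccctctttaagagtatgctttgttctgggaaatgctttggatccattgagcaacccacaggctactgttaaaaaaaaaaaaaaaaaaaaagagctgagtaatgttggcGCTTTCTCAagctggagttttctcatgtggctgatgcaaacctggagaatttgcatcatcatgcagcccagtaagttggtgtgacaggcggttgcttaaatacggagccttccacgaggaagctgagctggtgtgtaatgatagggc
Nfe2l2, chr2:75704614-75704913, minus strand: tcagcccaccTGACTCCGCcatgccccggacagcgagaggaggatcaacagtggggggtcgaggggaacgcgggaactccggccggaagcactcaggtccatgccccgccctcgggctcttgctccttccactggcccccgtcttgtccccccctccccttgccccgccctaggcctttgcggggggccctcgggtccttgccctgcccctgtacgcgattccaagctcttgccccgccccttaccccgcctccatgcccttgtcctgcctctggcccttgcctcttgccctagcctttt
The Srxn1 window held 3 matches, TGAGTCGGC beginning 158 bases before the start, TGAGTCAGC 45 bases before it and TGACCTAGC 28 bases after it. Gclm held TGACGGTGC at 134 bases before the start and Nfe2l2 held TGACTCCGC at 240 bases before it. Slc7a11 held TGAGAAAGC alone, 97 bases before the start. Among members whose windows are not shown, Txnrd1 held TGACAAAGC in 1 of its 3 windows, and the Keap1 and Nqo1 windows held no match. A match is a description of letters in the window, and no binding was measured.

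In the gene annotation of the same build, Nfe2l2 lies at chr2:75675513-75704641 (minus strand) and Srxn1 at chr2:152105516-152111376 (plus). Slc7a11 occupies chr3:49892526-50443614 (minus) and Gclm chr3:122245557-122270732 (plus). Gsr spans chr8:33652523-33698163 (plus), Hmox1 chr8:75093621-75100589 (plus) and Nqo1 chr8:107388225-107403206 (minus). Keap1 lies at chr9:21229730-21239361 (minus), Gclc at chr9:77754535-77794485 (plus) and Txnrd1 at chr10:82833951-82897712 (plus). Exons of Keap1 share 510 bases with the antisense transcript Gm16754, which had at most 8 counts in any library. Exons of Gclm share 296 bases with Gm17494 on the opposite strand, which had at most 59 counts. They share 244 bases with the pseudogene Gm6061 on the same strand, whose symbol matched no line of counts. The sources used here do not say whether strand was used in counting.

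Levels of different genes were compared by TPM, which is scaled for gene length. Srxn1, which encodes the sulfiredoxin that repairs overoxidized peroxiredoxins, had the highest median over the 24 libraries, 148 TPM. Hmox1 followed at 129.99 TPM and Txnrd1 at 122 TPM. The ranges of these 3 genes overlapped, and Hmox1 exceeded Txnrd1 in 12 of 24 libraries. Gsr stood at 73.6 TPM, below Txnrd1 in 24 of 24 libraries. Gclc and Nfe2l2 both had a median of 60.7 TPM, Keap1 of 47.7 TPM and Gclm of 46.5 TPM, with overlapping ranges between each pair of neighbours. Slc7a11 at 12.2 TPM and Nqo1 at 11.3 TPM were lowest, Slc7a11 stood below Gclm in 24 of 24 libraries, and the ranges of Slc7a11 and Nqo1 overlapped. In Ctr BSA their medians stood the other way, at 7.88 TPM for Slc7a11 and 13.3 TPM for Nqo1. Genes further apart in this order could overlap as well, since Gclc ran from 41.5 to 128 TPM and Hmox1 from 84.3 to 204 TPM.

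**Figure D1:**
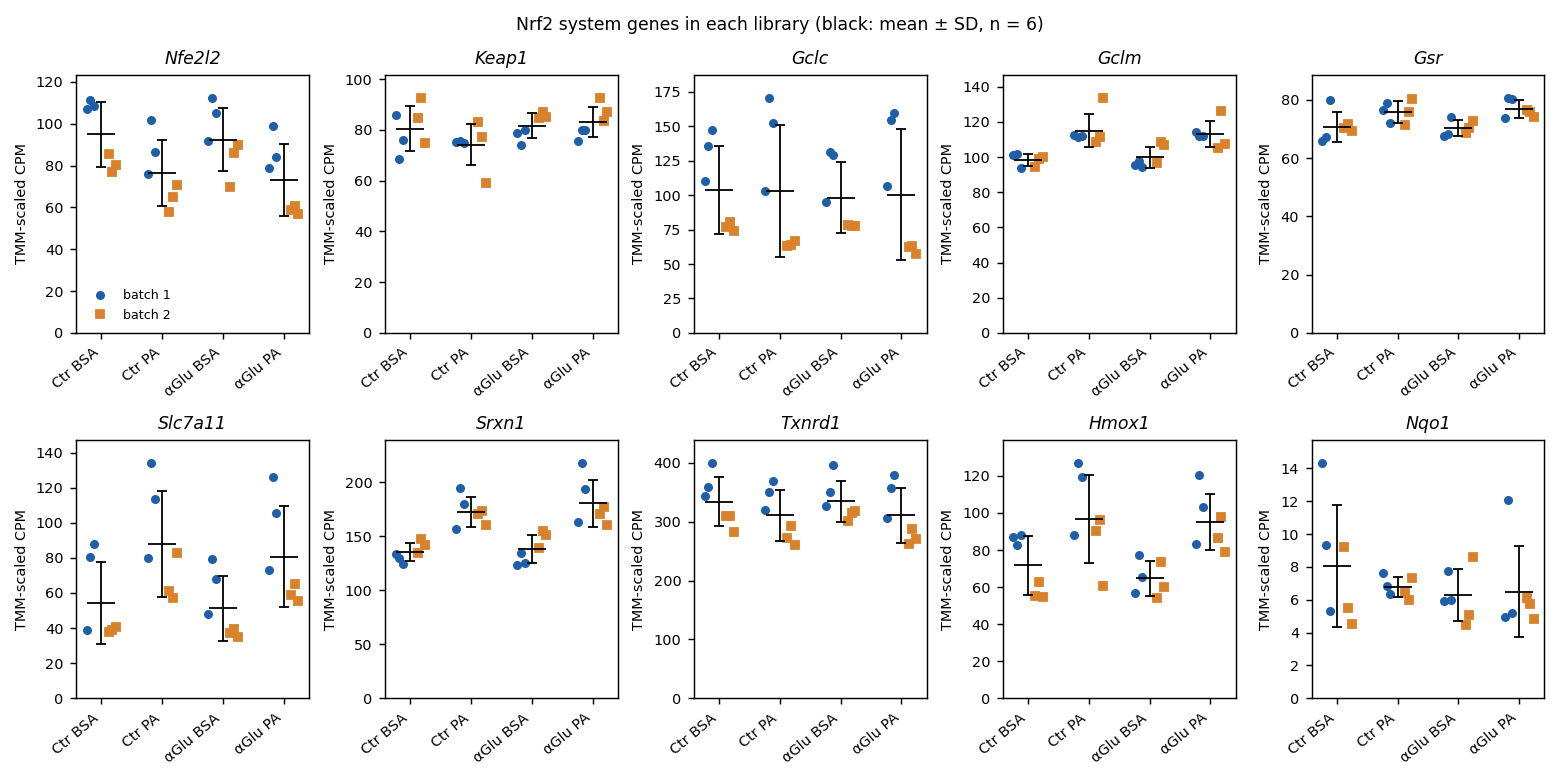
TMM-scaled CPM of each of the 10 genes in every library, by group, with batch 1 as circles and batch 2 as squares and the mean ± SD over 6 libraries in black. Srxn1 lay at 157 CPM or more in all PA libraries and at 155 CPM or less in all BSA libraries, whereas the 2 batches of Gclc lay apart in both treatments.

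The first comparison asked how PA changed these genes. In Ctr cells, PA raised Slc7a11, Hmox1, Srxn1 and Gclm and lowered Nfe2l2, the gene of the transcription factor itself. In αGlu cells these 5 genes also passed, each in the same direction as in Ctr cells, and Gsr rose as well. Keap1, Gclc, Txnrd1 and Nqo1 did not pass the test in either, though Txnrd1 did under the blocked fit given with its values. Thus 4 of 10 members rose and 1 fell in Ctr cells, where 30% of all 15916 genes tested were called, 15.5% up and 14.5% down. In αGlu cells 5 rose and 1 fell, where 28.5% of all genes were called, 14.4% up and 14.2% down. The median log2 fold change of the 10 members was 0.02 in Ctr and 0.08 in αGlu cells, beside 0.01 for all genes in each. All changes were modest. With a required change of more than 1 on the log2 scale at an unadjusted p of 0.05, 0 members were called in Ctr cells, beside 5.91% of all genes, and 0 in αGlu cells, beside 5.57%. In these bulk libraries, fewer cells of a type and less RNA per cell cannot be told apart.

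Of the regulators, Nfe2l2 in Ctr BSA had a lowest, median and highest level of 77.1, 96.2 and 112 CPM, and in Ctr PA of 57.8, 73.4 and 102 CPM. The groups overlapped, but 4 of 6 PA libraries lay below every BSA library, and within each batch all PA libraries lay below all BSA libraries. The share of all genes with PA and BSA apart within a batch was not counted, here or below. The fitted log2 fold change was -0.32 ± 0.08 (SE), and the adjusted p was 0.00296 (edgeR quasi-likelihood test, Benjamini-Hochberg adjustment). In αGlu cells Nfe2l2 had 69.7, 90.7 and 112 CPM in BSA and 56.8, 69.6 and 99.1 CPM in PA. Here 3 of 6 PA libraries lay below all BSA libraries, and the batch 2 groups did not overlap (log2 fold change -0.36 ± 0.08, adjusted p = 0.00107). Keap1, the cytosolic repressor, had 68.6, 80.4 and 92.5 CPM in Ctr BSA and 58.9, 75.3 and 83.04 CPM in Ctr PA. These groups overlapped, and the log2 fold change was -0.12 (95% interval -0.26 to 0.03, adjusted p = 0.222). In αGlu cells Keap1 had 74.04, 82.4 and 87.1 CPM in BSA and 75.7, 81.8 and 92.5 CPM in PA, also overlapping, and the fitted change was 0.02 (-0.12 to 0.17, adjusted p = 0.824).

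Slc7a11 encodes the transporter subunit that imports cystine, from which the cysteine of glutathione is made. It showed the largest fold change of the 10 genes. Its levels were 37.98, 39.8 and 87.8 CPM in Ctr BSA and 56.9, 81.2 and 134 CPM in Ctr PA. Only 2 of 6 PA libraries exceeded every BSA library, and the batches lay at different levels. In batch 2 the groups were apart, at 37.98 to 40.7 CPM in BSA and 56.9 to 82.6 CPM in PA. In batch 1 they overlapped, at 38.9 to 87.8 CPM in BSA, lowest in S1, and 79.9 to 134 CPM in PA. The log2 fold change was 0.71 ± 0.16 (adjusted p = 0.00170). In αGlu cells Slc7a11 had 35.03, 43.8 and 79.1 CPM in BSA and 55.2, 69.1 and 126 CPM in PA. The overlap was of the same form, with batch 2 groups apart. In batch 1 they overlapped, at 48.1 to 79.1 CPM in BSA and 73.3 to 126 CPM in PA. The log2 fold change in αGlu cells was 0.66 ± 0.16 (adjusted p = 0.00323). In the same runs of 4 library numbers as described for Txnrd1 below, Slc7a11 was higher with PA in 6 of 6 in Ctr cells and 6 of 6 in αGlu cells.

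Gclm and Gclc encode the modifier and the catalytic subunit of glutamate-cysteine ligase, the rate-limiting enzyme of glutathione synthesis. Gclm had 93.8, 99.5 and 102 CPM in Ctr BSA and 108, 112 and 134 CPM in Ctr PA. The 6 PA libraries all lay above the 6 BSA libraries, and the log2 fold change was 0.22 ± 0.05 (adjusted p = 0.00210). In αGlu cells Gclm had 94.4, 97.2 and 108 CPM in BSA and 105, 112 and 126 CPM in PA, where 4 of 6 PA libraries lay above all BSA libraries (log2 fold change 0.18 ± 0.05, adjusted p = 0.0126). Gclc ran otherwise. It had 73.8, 95.3 and 147 CPM in Ctr BSA and 62.8, 84.8 and 170.4 CPM in Ctr PA, and the log2 fold change was -0.07 (-0.33 to 0.19, adjusted p = 0.728). The PA libraries of Gclc spread to both sides, 2 above and 3 below all BSA libraries. The αGlu cells showed 77.7, 86.4 and 131 CPM of Gclc in BSA and 57.02, 84.7 and 159 CPM in PA, again with 2 PA libraries above and 3 below (log2 fold change -0.06, -0.32 to 0.21, adjusted p = 0.781).

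The ratio of Gclm to Gclc TPM, a description with no test, had a median of 0.449 in Ctr BSA and 0.441 in Ctr PA in batch 1. In batch 2 it had a median of 0.736 in Ctr BSA and 1.04 in Ctr PA. In αGlu cells the medians were 0.445 in BSA and 0.434 in PA in batch 1, and 0.820 in BSA and 1.13 in PA in batch 2. In batch 2 the 3 PA libraries of each ASO (1.01 to 1.20) lay above the 3 BSA libraries (0.735 to 0.834), and in batch 1 they overlapped.

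Gsr, glutathione reductase, regenerates glutathione from its oxidized form. It had 65.8, 69.7 and 80.0 CPM in Ctr BSA and 71.2, 76.2 and 80.3 CPM in Ctr PA, which overlapped, and did not pass the test (log2 fold change 0.10 ± 0.05, adjusted p = 0.108). In αGlu cells Gsr had 67.6, 69.5 and 74.1 CPM in BSA and 73.8, 76.1 and 80.6 CPM in PA, with 4 of 6 PA libraries above all BSA libraries (log2 fold change 0.13 ± 0.05, adjusted p = 0.0446). This call was marginal, as the adjusted p was 0.0554 by DESeq2 and 0.0898 with no filter on low counts, and lay between 0.0506 and 0.0961 when any of S2, S3, S6, S8, S12, S13, S14, S16, S17, S18, S19 and S20, 12 of the 24 libraries, was left out (log2 fold change 0.11 to 0.13). Without Ctr BSA library S9, Gsr passed in Ctr cells also (log2 fold change 0.14, adjusted p = 0.0198).

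Srxn1 had the smallest adjusted p of the 10 genes in both comparisons. It had 125, 134 and 148 CPM in Ctr BSA and 157, 172 and 195 CPM in Ctr PA, with no overlap (log2 fold change 0.35 ± 0.07, adjusted p = 0.000822). In αGlu cells it had 124, 137 and 155 CPM in BSA and 160.2, 174 and 218 CPM in PA, again with no overlap (log2 fold change 0.38 ± 0.07, adjusted p = 0.000353). Txnrd1, the cytosolic thioredoxin reductase, did not pass. Its levels were 282, 327 and 399 CPM in Ctr BSA and 260.0, 306 and 369 CPM in Ctr PA, and 2 PA libraries lay below all BSA libraries (log2 fold change -0.11, -0.23 to 0.02, adjusted p = 0.185). In αGlu cells Txnrd1 had 301, 323 and 396 CPM in BSA and 263, 297 and 379 CPM in PA, with 3 PA libraries below all BSA libraries (log2 fold change -0.11, -0.24 to 0.01, adjusted p = 0.155). Its call changed when the libraries were blocked in runs of 4 consecutive library numbers (S1 to S4, S5 to S8 and so on), each of which holds the 4 groups. In these runs Txnrd1 was lower with PA in 6 of 6 in Ctr cells and 5 of 6 in αGlu cells, and it passed as lower in both (-0.11, adjusted p = 0.0453, and -0.12, adjusted p = 0.0310, by edgeR). The labels do not say that such a run is 1 experiment.

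Hmox1 encodes haem oxygenase 1, which opens haem to biliverdin, carbon monoxide and iron. It had 54.6, 72.7 and 87.9 CPM in Ctr BSA and 60.7, 93.2 and 127 CPM in Ctr PA, and 5 of 6 PA libraries lay above all BSA libraries (log2 fold change 0.44 ± 0.12, adjusted p = 0.00812). In αGlu cells Hmox1 had 54.2, 62.9 and 77.2 CPM in BSA and 79.1, 92.2 and 120.3 CPM in PA, with no overlap (log2 fold change 0.55 ± 0.12, adjusted p = 0.00146). The quinone reductase gene Nqo1, a classical Nrf2 target, had the fewest counts of the 10 genes, 113 to 340 in a library. It had 4.53, 7.38 and 14.3 CPM in Ctr BSA and 5.99, 6.64 and 7.62 CPM in Ctr PA, with all PA values within the BSA range and the highest, 14.3 CPM, in S1 (log2 fold change -0.22, -0.70 to 0.27, adjusted p = 0.516). In αGlu cells Nqo1 had 4.46, 5.94 and 8.60 CPM in BSA and 4.84, 5.45 and 12.04 CPM in PA, also overlapping (log2 fold change 0.03, -0.45 to 0.51, adjusted p = 0.941). Without S1 the Ctr value was -0.02, and without S8 the αGlu value was -0.20. Its residual SD, 0.43 on the log2 scale, was the widest of the 10 genes, and that of Gsr, 0.07, the narrowest. Members whose groups did not overlap numbered 2 in Ctr cells (Gclm and Srxn1), beside 2.97% of all genes with PA above BSA, and 2 in αGlu cells (Hmox1 and Srxn1), beside 4.17%.

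**Figure D2:**
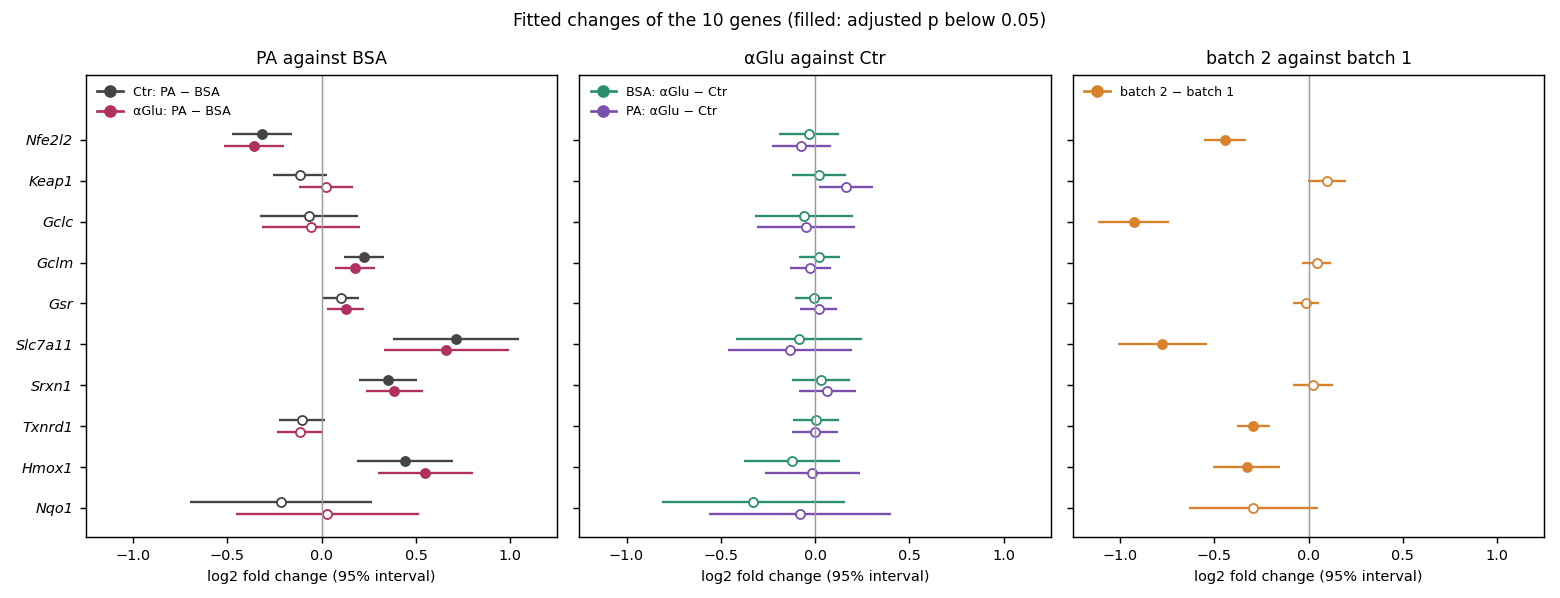
Fitted log2 fold changes of the 10 genes with 95% intervals, for PA against BSA, αGlu against Ctr, and batch 2 against batch 1 (filled points passed an adjusted p of 0.05). Under PA, Slc7a11 (0.71 and 0.66) and Hmox1 (0.44 and 0.55) rose most and Nfe2l2 (-0.32 and -0.36) fell, while no point is filled for αGlu against Ctr.

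Markers of other cell types moved with PA as well. Of 14 tested genes on a list of macrophage and other leukocyte markers, 10 fell in Ctr cells and 1 in αGlu cells. Of all genes, 14.5% were called down in Ctr cells and 14.2% in αGlu cells, and each marker list is read beside these shares. For the difference between both PA responses 0 of the 14 were called, though 14 of 14 values were positive. Between the ASOs 0 of the 14 were called under either treatment. The summed level of the list was 81.98 to 408 CPM in Ctr BSA and 87.1 to 133 CPM in Ctr PA. In Ctr PA, 11 to 15 of the 15 listed genes had counts. The value of 408 CPM came from library S21, and the next Ctr BSA library, S17, had 184 CPM. In αGlu cells the sum was 93.4 to 180.2 CPM in BSA and 83.1 to 143 CPM in PA. C1qa made up much of these sums, with means of 84.3 CPM in Ctr BSA and 81.2 CPM in Ctr PA. Fibroblast and stellate markers fell in 7 of 8 tested genes in Ctr cells (sums of 137 to 568 CPM in BSA, 11.2 to 63.9 CPM in PA) and in 5 of 8 in αGlu cells (89.8 to 1082 CPM in BSA, 12.2 to 173 CPM in PA). Acinar markers fell in 9 of 11 genes in Ctr cells (454 to 25052 CPM in BSA, 241 to 8805 CPM in PA) and in 8 of 11 in αGlu cells (560.3 to 15099 CPM in BSA, 340.2 to 7983 CPM in PA). The 10 beta-cell markers had counts in every library, with sums of 87357 to 135214 CPM in Ctr BSA and 84236 to 131965 CPM in Ctr PA. Of these 10, 3 rose and 3 fell in Ctr cells and 3 rose and 2 fell in αGlu cells. Ctr BSA library S1 had a beta-cell sum of 134035 CPM, against 84084 to 99108 CPM in the other libraries of batch 1. Alpha, delta and PP markers fell in 3 of 9 genes in Ctr and 1 of 9 in αGlu cells, ductal markers in 2 of 8 in each, endothelial markers in 1 of 9 in each, and Schwann and glial markers in 0 of 9 in each. The part of these cells in the members' changes was not tested.

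The second comparison asked whether the αGlu ASO changed the 10 genes or their response to PA. No member passed in any of these tests. In BSA, 0 of 10 members and 0% of all genes were called by edgeR, with 0 members and 461 genes at an unadjusted p below 0.05, and DESeq2 called 8 genes, 0 of them members. In PA, 0 members and 0% of all genes were called, with 1 member and 538 genes at an unadjusted p below 0.05, and DESeq2 called 30 genes, 0 of them members. For the difference between both PA responses, 0 members and 0% of all genes were called, with 0 members and 332 genes at an unadjusted p below 0.05, and DESeq2 called 0 genes.

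These comparisons used the same libraries as those of PA against BSA. The widths of the intervals show what the unpaired fit could resolve for each gene. A fit that pairs the libraries of a replicate could give other widths, which are not given here. In BSA, the log2 difference between αGlu and Ctr was 0.03 for Srxn1 (95% interval -0.12 to 0.18), 0.02 for Gclm (-0.09 to 0.13) and -0.01 for Gsr (-0.10 to 0.09). It was -0.12 for Hmox1 (-0.38 to 0.13) and -0.08 for Slc7a11 (-0.42 to 0.25), which leaves wider room. Nqo1 had the widest interval, -0.33 (-0.81 to 0.16), and its value was -0.13 without Ctr BSA library S1. In PA, the difference was 0.06 for Srxn1 (-0.09 to 0.22), -0.02 for Hmox1 (-0.27 to 0.24), -0.13 for Slc7a11 (-0.46 to 0.19) and -0.07 for Nfe2l2 (-0.23 to 0.09). The difference between both PA responses was 0.11 for Hmox1 (-0.25 to 0.47) and 0.03 for Srxn1 (-0.18 to 0.25). Averaged over both treatments, the αGlu effect on Hmox1 was -0.24 ± 0.12 in batch 1 and 0.11 ± 0.12 in batch 2. The difference of 0.35 ± 0.17 between batches did not pass (adjusted p = 0.997, by edgeR).

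Keap1 was the member with an unadjusted p below 0.05 in PA (adjusted p = 0.993), where it was 0.16 higher in αGlu cells on the log2 scale (95% interval 0.02 to 0.31). Its 3 batch 1 libraries had 75.7, 79.8 and 80.1 CPM in αGlu PA and 74.7, 75.1 and 75.5 CPM in Ctr PA. Its 3 batch 2 libraries had 83.5, 86.8 and 92.5 CPM in αGlu PA and 58.9, 77.1 and 83.04 CPM in Ctr PA. The groups did not overlap within either batch, as was so for 0.188% of all genes in this direction. They overlapped across batches, a difference for which the fit has a term. In the runs of consecutive library numbers described for Txnrd1, Keap1 was higher with αGlu in 6 of 6 in PA and 3 of 6 in BSA. The result failed the adjustment, and the fit blocked by these runs did not call it either.

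Batch 2 had less Gclc, Slc7a11, Nfe2l2, Hmox1 and Txnrd1 than batch 1, so that 5 of 10 members were called, all down, beside 51.5% of all genes called and 25.4% called down. With the required change of more than 1 on the log2 scale, 0 members were called, beside 6.38% of all genes. Gclc had 94.7, 133 and 170.4 CPM as lowest, median and highest of 12 libraries in batch 1 and 57.02, 70.2 and 80.5 CPM in batch 2. It was the member without overlap between batches, as held for 3.64% of all genes in this direction (log2 fold change -0.93 ± 0.09, adjusted p = 6.13e-09). Slc7a11 differed by -0.78 ± 0.11 (adjusted p = 3.53e-06), Nfe2l2 by -0.44 ± 0.05 (adjusted p = 2.36e-07), Hmox1 by -0.33 ± 0.09 (adjusted p = 0.00258) and Txnrd1 by -0.29 ± 0.04 (adjusted p = 2.50e-06). Srxn1, Gclm and Gsr had log2 differences of 0.02, 0.04 and -0.01 between batches, and none passed. Summed acinar markers ran from 3281 to 25052 CPM in batch 1 and from 241 to 639 CPM in batch 2. Ductal markers ran from 1001 to 1643 CPM and from 439 to 858 CPM, and neither list overlapped. Beta-cell markers were called higher in batch 2 in 10 of 10 genes, beside 26.1% of all genes. Alpha, delta and PP markers were called lower in 7 of 9 and higher in 1, and endothelial markers lower in 5 of 9 and higher in 0. The part of these cells in the differences of the members was not tested.

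Within batches, the PA response averaged over both ASOs kept its sign for each called member. Slc7a11 rose by 0.65 ± 0.17 in batch 1 and 0.73 ± 0.17 in batch 2, and Hmox1 by 0.50 ± 0.12 in each. For Gclm the values were 0.21 ± 0.05 and 0.19 ± 0.05, and for Nfe2l2 they were -0.27 ± 0.08 and -0.40 ± 0.08. Srxn1 differed most among called members, with 0.52 ± 0.06 in batch 1 and 0.22 ± 0.06 in batch 2 (difference -0.30 ± 0.09, adjusted p = 0.445). Gclc was 0.18 ± 0.11 in batch 1 and -0.31 ± 0.11 in batch 2 (difference -0.49 ± 0.16, adjusted p = 0.544). In batch 2 all Gclc values with PA (57.02 to 66.5 CPM) lay below those with BSA (73.8 to 80.5 CPM). No member passed the test of a difference between batches in its PA response, where 0.0565% of all genes were called.

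**Figure D3:**
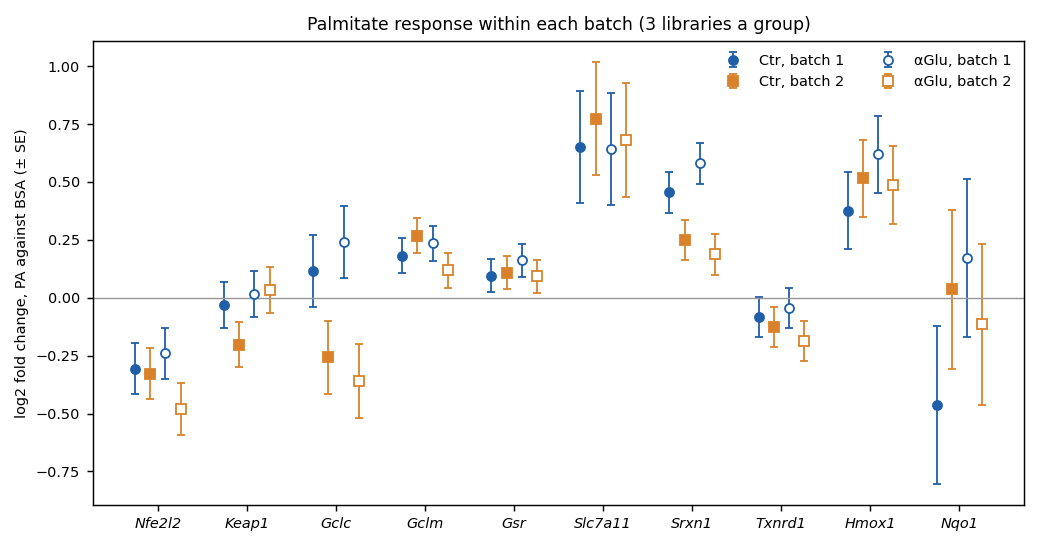
Log2 fold change of PA against BSA (± SE) within each batch, 3 libraries a group, for Ctr (filled) and αGlu cells (open). Slc7a11, Hmox1, Gclm and Srxn1 stood above 0 and Nfe2l2 below 0 in all 4 settings, whereas Gclc stood above 0 in batch 1 and below 0 in batch 2.

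Around the 10 genes, 149 genes were listed in 8 pathway groups, and 144 were tested. In Ctr cells 39 rose and 17 fell with PA, the median change being 0.09 on the log2 scale, and in αGlu cells 45 rose and 11 fell, with a median of 0.13, beside 0.01 for all genes in each. In Ctr cells 27.1% of the 144 rose and 11.8% fell, beside 15.5% and 14.5% of all genes, and in αGlu cells 31.2% rose and 7.64% fell, beside 14.4% and 14.2%. The counts of the single lists below are read against these same shares of all genes. The pooled counts include the ATF4 and CHOP list, where 61.9% of 21 tested genes rose in Ctr cells and 66.7% in αGlu cells. In the other lists, 0% to 31.6% rose in Ctr cells and 11.1% to 40% in αGlu cells. The lists are not separate. The ATF4 and CHOP list also holds Chac1 and Slc3a2 of the glutathione list, Sesn2 of the sestrin list and Phgdh of the other targets. Gpx2 stands on the glutathione list and among the other targets. The pooled counts take each gene once. In the αGlu against Ctr comparisons and for the difference between both PA responses, 0 of 144 were called by edgeR.

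Partners, repressors and degradation factors of Nrf2 numbered 16, of which 2 rose and 3 fell in Ctr cells and 3 rose and 1 fell in αGlu cells, shares of 12.5% up and 18.8% down in Ctr cells that lay near those of all genes. Nfe2l1, a related cap'n'collar factor, rose by 0.35 ± 0.05 in Ctr cells (adjusted p = 6.28e-06). Sqstm1, the autophagy receptor p62 that binds Keap1, rose by 0.44 ± 0.09 (adjusted p = 0.000455) and was the most abundant gene of the list at 920.1 TPM. The coactivator gene Crebbp fell by 0.41 on the log2 scale (SE 0.07, adjusted p = 6.22e-05). In αGlu cells the corresponding values were 0.32 for Nfe2l1, 0.48 for Sqstm1 and -0.36 for Crebbp, and all passed.

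In glutathione synthesis, reduction and transfer, 38 genes were tested, and 12 rose and 3 fell in Ctr cells and 12 rose and 2 fell in αGlu cells. Glrx, a glutaredoxin, rose by 0.63 ± 0.07 (adjusted p = 8.32e-07), and the transferase gene Gstt2 by 0.72 ± 0.10 (adjusted p = 4.57e-06). Slc3a2, the heavy chain that pairs with Slc7a11, rose by 0.25 ± 0.05 in Ctr cells (adjusted p = 0.000704) and by 0.33 ± 0.05 in αGlu cells (adjusted p = 3.32e-05). Gpx8 changed by -1.27 ± 0.27 on the log2 scale (adjusted p = 0.00106), falling from 4.15 ± 2.08 CPM (SD, n = 6) to 1.71 ± 1.00 CPM. The most abundant genes of this list, Gstp1 (629.6 TPM) and Gstm1 (404 TPM), had log2 fold changes of -0.05 ± 0.21 and 0.06 ± 0.08 and did not pass.

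Of 18 thioredoxins, peroxiredoxins and sestrins, 2 rose and 3 fell in Ctr cells, and 2 rose and 2 fell in αGlu cells. In Ctr cells these were 11.1% and 16.7% of the list, near the 15.5% and 14.5% of all genes. Txnip, the thioredoxin inhibitor, had log2 fold changes of -0.52 ± 0.08 (adjusted p = 3.51e-05) in Ctr and -0.57 ± 0.08 (adjusted p = 1.25e-05) in αGlu cells. The stress-inducible Sesn1 also fell, with log2 fold changes of -0.35 ± 0.07 and -0.38 ± 0.07. Among 10 genes of NADPH supply, 3 rose in Ctr cells, Idh1 (0.31 ± 0.06), Idh2 (0.27 ± 0.06) and Nadk (0.17 ± 0.05), and 4 rose in αGlu cells. These enzymes furnish NADPH, the cofactor that Gsr and Txnrd1 consume, or its precursor.

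Of 12 genes of haem breakdown and iron, 3 rose and 1 fell in Ctr cells, and 3 rose and 2 fell in αGlu cells. Ftl1, the ferritin light chain that stores iron, rose by 0.44 ± 0.08 (adjusted p = 0.000144) and was the most abundant of them at 2928 TPM. The transferrin receptor gene Tfrc rose by 0.46 ± 0.09, and the iron exporter gene Slc40a1 changed by -0.59 ± 0.10 on the log2 scale (adjusted p = 0.000109). In αGlu cells the values were 0.60 for Ftl1, 0.26 for Tfrc and -0.59 for Slc40a1.

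Other reported Nrf2 targets and detoxification genes numbered 29, and did not move in 1 direction. In Ctr cells 6 rose and 5 fell, and in αGlu cells 8 rose and 4 fell. The metallothionein genes Mt1 and Mt2 rose by 0.79 ± 0.14 (adjusted p = 0.000170) and 0.71 ± 0.15 (adjusted p = 0.00108) in Ctr cells. The efflux pump gene Abcc2 and the reported target Osgin1 fell, with log2 fold changes of -0.38 ± 0.06 and -0.52 ± 0.10. Of 5 superoxide dismutase and catalase genes, Sod3 alone fell in Ctr cells (log2 fold change -1.85 ± 0.50, from 1.82 ± 1.08 to 0.542 ± 0.566 CPM), and Ccs, the copper chaperone of Sod1, alone rose in αGlu cells (0.28 ± 0.10, adjusted p = 0.0366). Sod1, at 115 TPM the most abundant of them, had log2 fold changes of 0.10 and 0.19 and did not pass.

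Because Slc7a11 is also a target of ATF4, the transcription factor of the amino acid response, 22 genes of ATF4 and CHOP were listed, of which 21 were tested. In Ctr cells 13 rose and 2 fell, with a median log2 fold change of 0.27, and in αGlu cells 14 rose and 0 fell, with a median of 0.33. Trib3 rose by 0.68 ± 0.09 (adjusted p = 7.46e-06), Atf5 by 0.41 ± 0.08 (adjusted p = 0.000243) and Vldlr by 0.33 ± 0.05 (adjusted p = 3.01e-05) in Ctr cells. Atf4 itself, the most abundant of the list at 451.5 TPM, rose by 0.20 ± 0.05 (adjusted p = 0.00260). The part of either factor in the rise of Slc7a11 was not tested.

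**Figure D4:**
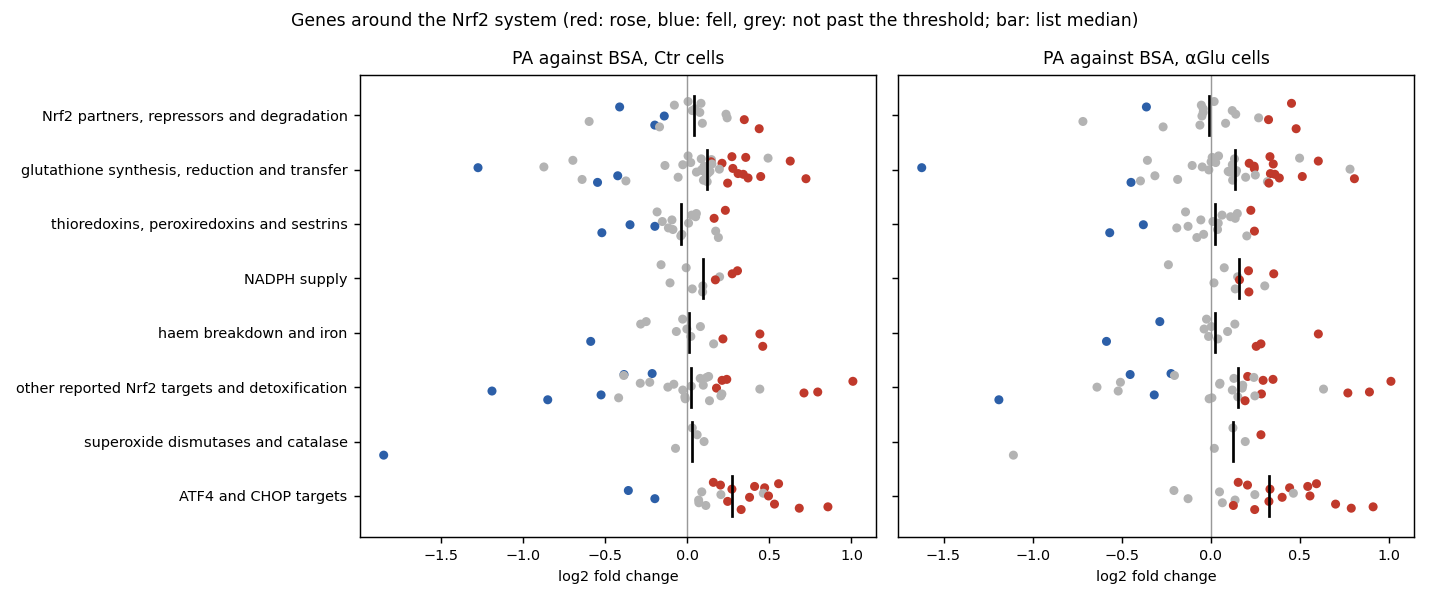
Log2 fold change of PA against BSA for each tested gene of the 8 lists in Ctr (left) and αGlu cells (right), red where it rose, blue where it fell, grey where it did not pass, with the list median as a bar. The ATF4 and CHOP list has the highest median (0.27 and 0.33), and the Nrf2 partner list lies near 0 (0.04 and -0.01).

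The 10 genes did not share 1 pattern across the 24 libraries. As a description, the Pearson r of log2 CPM was 0.91 between Gclc and Txnrd1, 0.84 between Nfe2l2 and Txnrd1 and 0.81 between Nfe2l2 and Gclc, genes that share a lower level in batch 2. It was 0.77 between Hmox1 and Slc7a11, which share a rise with PA and also a lower level in batch 2. It was 0.71 between Srxn1 and both Hmox1 and Gclm, genes that share a rise with PA. It was -0.44 between Nfe2l2 and Gclm and -0.18 between Gclc and Gclm. These points share batch and treatment, so r describes the libraries together. Among the other genes tested, Nfe2l2 was most like S100a6 (r = 0.95), Sidt2 and Smo (both 0.94), and Hmox1 most like Ftl1 (0.94), Sqstm1 (0.93) and Rpl3 (0.92). Slc7a11 was most like Rhoq and Mt2 (both 0.94) and Anxa7 (0.93). For Gclm they were Tmem192 (0.90), Pnrc2 and Esrrg (both 0.89), and for Srxn1 they were Hadha (0.88), Rab25 (0.87) and Acadvl (0.86). Gclc was closest to Mpzl3 (0.97), Slc38a1 and Pmaip1 (both 0.96), Txnrd1 to Plaur, Anxa3 (both 0.94) and Ptpn14 (0.93), and Gsr to Mcu (0.81), Slc35f5 and Pramef12 (both 0.78).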

How the data were processed

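The authors prepared stranded mRNA libraries (Illumina kit) and processed the reads in the QIAGEN RNA-seq Analysis Portal 5.1. The submitters' processing notes name GRCm38. Neither aligner nor annotation is given in the sources used here. Per gene and library, the deposited table gives raw exon read counts, which were tested here, and TPM per library, which the authors scaled for length and depth and which was used here only to compare genes. The authors' RPKM and CPM were not used.

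Empty cells were read as counts of 0. The 15916 genes passing filterByExpr, with 99.95% of counts, were scaled by TMM and fitted in edgeR 4.0.16 (R 4.3.3) with terms for group and batch over all 24 libraries. Quasi-likelihood F-tests were two-sided, p-values were adjusted by Benjamini-Hochberg over all genes, and genes were called at an adjusted p below 0.05. SE values were derived from the F statistic, and CPM are TMM-scaled. The study states that the groups of each replicate came from the same animal, but the labels do not say which libraries form a replicate, so the libraries were fitted unpaired and p-values measure the spread between these libraries within batches. Libraries of a group differed by more than sampling noise (chi-square per degree of freedom 6.29 to 380). The fits were tested on data simulated without batch or replicate effects, with changes of 1.5 and 2 times. Of genes changed 1.5 times, 62.2% to 69.8% were recovered in the comparisons of groups, and of genes changed 2 times 65.7% to 75.8%. For the difference between both PA responses, 47% and 68.4% were recovered. The changed genes were drawn from all genes tested. Smaller changes were not simulated.

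The members, the pathway and marker lists and the tests were chosen with earlier results of these data known. All 10 members were named. From each list up to 4 genes of smallest p in PA against BSA in Ctr cells, up to 2 in other comparisons and up to 2 of highest TPM could be named. C1qa was named after its values were seen. The 3 genes of highest Pearson r with each called member were also named. Alternatives were DESeq2 1.42.0, upper-quartile scaling, no filter or a stricter one (10 counts in 12 libraries), no batch term, each batch alone, the compared groups alone, the study's threshold, and each library left out in turn. A block by runs of 4 library numbers was added after the data were seen.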

Additional observations from a re-analysis of the deposited data

Results flagged for a closer look

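In each of the 40 combinations of member and group, the lowest and highest of the 6 libraries were compared with their nearest neighbour by Dixon's criterion, and 3 stood apart, while chance alone marks about 1 in 20. Keap1 in Ctr PA library S23 was lowest at 58.9 CPM, against 74.7 CPM for the next library. Gclm in the same library was highest at 134 CPM, against 113 CPM for the next. Nqo1 in αGlu PA library S8 was highest at 12.04 CPM, against 6.11 CPM for the next. Without S23, Gclm still rose with PA in Ctr cells (log2 fold change 0.18). Without S23, the Keap1 difference between αGlu and Ctr in PA was 0.09 in place of 0.16 on the log2 scale.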

How the results depend on the processing

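The numbers of members called were 5 for PA in Ctr cells, 6 for PA in αGlu cells and 5 between batches. They stayed within 1.5 times under DESeq2 (5, 5 and 5), upper-quartile scaling, both other filters and, for PA, the compared groups alone. At the study's threshold all 3 numbers were 0. Without a batch term 2 members were called in Ctr cells (Gclm and Srxn1) and 3 in αGlu cells (Hmox1, Gclm and Srxn1). Over all genes, 4772 and 4543 were called with the batch term and 2312 and 2271 without it. In batch 1 alone the numbers were 1 (Srxn1) and 3 (Hmox1, Gclm and Srxn1), with fewer libraries, and in batch 2 alone 4 and 3, Gclc among them with a fall (-0.26, adjusted p = 0.0171, and -0.36, adjusted p = 0.00283). Over all genes, batch 1 alone gave 2033 and 1644 calls and batch 2 alone 1833 and 1902. The αGlu comparisons and the difference between both PA responses gave 0 members in every alternative. No called member changed direction in any alternative. With each library left out in turn the numbers ran from 5 to 6 in Ctr cells, 5 to 6 in αGlu cells and 5 to 6 between batches. The rise of Gsr in αGlu cells lost its call in 12 of these 24 fits, and the other 15 of 16 calls held in all 24. Gsr in Ctr cells passed without S9 (0.14, adjusted p = 0.0198), and Keap1 passed between batches without S23 (0.13, adjusted p = 0.00385). A replicate block by runs of 4 library numbers, an assumption about which libraries belong together that was made after seeing the data, called 6 members in Ctr and 7 in αGlu cells, adding Txnrd1 in both, lost no call, and called 0 members for the αGlu comparisons (9 genes in BSA, 0 in PA and 0 for the difference). Deviations from the group and batch means correlated at 0.02 to 0.37 across genes between libraries of a run, over 0.1 in 25 of 36 pairs, and at -0.31 to 0.12 between runs, over 0.1 in 1 of 72. Deviations of the 3 libraries of a group and batch sum to 0, so values between runs are not independent of those within runs. Nqo1 had the fewest counts, and its intervals ran from -0.70 to 0.51 on the log2 scale under PA.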
